A study of Mus musculus with 48 samples.

Results

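The genes described here carry calcium and magnesium through the distal part of the kidney tubule. They are 8 genes: the calcium-binding protein genes S100g, Calb1 and Pvalb, the calcium exchanger gene Slc8a1, the calcium pump genes Atp2b1 and Atp2b4, the calcium receptor gene Casr and the magnesium channel gene Trpm6. Members were taken by gene symbol, with earlier results of these data known. Counts of members called are therefore descriptions and not tests of the set. All probe sets annotated to the member symbols on the 430A and 430B mouse arrays were included. This gave 18 of 45137 probe sets, for 8 of 18193 named genes. A total of 16 probe sets passed the filter on low signals and were tested. The 2 that did not pass belong to Slc8a1, which kept its other probe sets, so every gene had at least 1 probe set tested.

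Whole-kidney RNA came from Hyp mutant or normal mice fed a low phosphate diet or a control diet for 3 days, beginning at an age of 10 weeks. A single label gives the strain as C57BL/6J, and the other labels give none. Hyp inactivates the X-linked gene Phex. Hyp males were hemizygous (Hyp/Y), Hyp females heterozygous (Hyp/+), and the normal mice were their littermates, which carry no Hyp allele. RNA of 72 mice was combined into 24 pools of 3 mice, with 3 pools in each of 8 groups: Hyp males and females on the low phosphate diet, Hyp males and females on the control diet, normal males and females on the low phosphate diet, and normal males and females on the control diet. Each pool was hybridised to 1 array of each chip. Pooling averages over mice, so the spread between pools is narrower than that between single animals. The values are deposited signal intensities on a linear scale, with no read depth behind them, and the number of arrays limits the precision.

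In the distal convoluted and connecting tubules, calcium enters through apical channels, crosses the cell bound to calbindins and leaves through the basolateral exchanger and pumps. Active vitamin D is known to raise the expression of the calbindins and of the entry channels. Parvalbumin and the magnesium channel TRPM6 are known from the distal convoluted tubule, and the calcium receptor from the thick ascending limb.

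S100g encodes the smaller of the vitamin D-dependent calbindins, and its upstream sequence is shown because S100g had the largest diet difference of the 8 genes in Hyp pools and the largest genotype difference on the low phosphate diet. The 250 bases before its start, from RefSeq on assembly GRCm38.p6, lie at chrX:162964600-162964849 on the minus strand and are printed in the gene's direction. Capitals mark matches to AGGTCA and GGTTCA, hexamers that nuclear receptors including the vitamin D receptor are known to bind.
S100g: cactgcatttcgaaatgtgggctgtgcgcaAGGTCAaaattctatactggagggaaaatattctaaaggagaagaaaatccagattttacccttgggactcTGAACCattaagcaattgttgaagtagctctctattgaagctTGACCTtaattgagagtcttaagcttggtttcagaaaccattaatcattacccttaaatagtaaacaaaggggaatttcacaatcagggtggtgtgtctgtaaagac
AGGTCA occurred 220 bases upstream as printed and 107 bases upstream on the opposite strand, and GGTTCA 149 bases upstream on the opposite strand. No matches overlapped. Over 32851 windows of this length, searched on both strands, 14% held AGGTCA at least once and 1.36% held it at least 2 times, and 8.85% held GGTTCA. The 8 windows of Pvalb, Slc8a1, Atp2b1, Atp2b4, Casr and Trpm6 held neither hexamer. A match is a description of the letters and not a binding site. Calb1 was not among the 7 member genes matched to the promoter sequences.

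The first comparison asked how the diet acted in Hyp and in normal kidneys. S100g was 5.72-fold lower on the low phosphate diet in Hyp pools, and in normal pools it did not pass the test. Calb1, the larger calbindin, was 2.14-fold lower in Hyp pools by its brightest probe set. Pvalb, encoding parvalbumin, was 1.42-fold higher in Hyp pools by a call that was lost without any 1 of 20 pools or under any 1 of 4 other settings. No probe set of Slc8a1, Atp2b1, Atp2b4, Casr or Trpm6 passed the test for diet in either genotype.

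The S100g probe set 1448964_at had signals of 1752.5, 1373.6 and 1641 in Hyp males on the low phosphate diet, against 7695.3, 11069.9 and 8762.2 in Hyp males on the control diet. In Hyp females the signals were 2094, 1967.8 and 2592.6 on the low phosphate diet, against 13605.4, 15128.4 and 9597.9 on the control diet. All 6 Hyp pools on the low phosphate diet lay below all 18 other pools, the lowest of which had 6312.6. In normal males the signals were 7959.7, 10657.1 and 7689 on the low phosphate diet, against 6312.6, 9291.1 and 7302 on the control diet. In normal females they were 10072.3, 10848.4 and 12883.6 on the low phosphate diet, against 11934.3, 10888.2 and 11591.5 on the control diet. The diet groups overlapped in normal mice of both sexes.

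**Figure D1:**
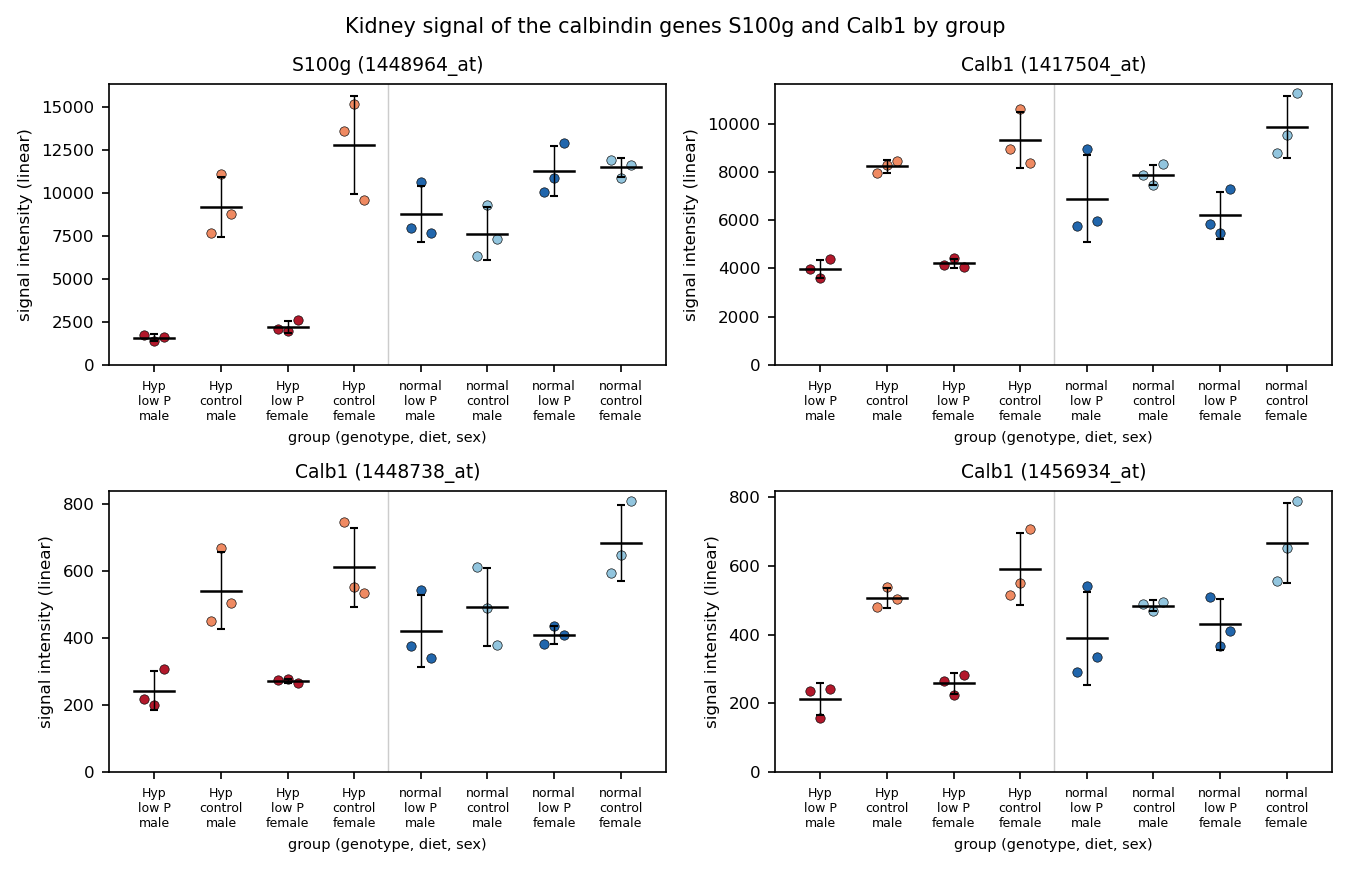
Signal intensity (linear) of S100g and of 3 Calb1 probe sets in each pool, by genotype, diet and sex, with 3 pools per group. Horizontal bars are means and vertical bars SD. The Hyp pools on the low phosphate diet are the lowest groups in all 4 panels.

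On the log2 scale S100g fell by 2.52 ± 0.13 on the low phosphate diet in Hyp pools (limma adjusted p = 8.47e-10; 6 pools against 6). Every ± beside a log2 difference is its standard error, and every adjusted p is limma's, by Benjamini-Hochberg over 28044 probe sets. Under other settings, or with a pool left out, the set of probe sets adjusted over can differ. In normal pools the diet difference was 0.08 ± 0.13, with a 95% interval of -0.19 to 0.36 (adjusted p = 0.915). The difference between these diet responses was itself tested: the genotype by diet interaction was -2.60 ± 0.19 (adjusted p = 2.91e-07). S100g accounted for the 1 of 16 member probe sets called lower in this interaction, against 0.00713% of all probe sets. S100g fell by 2.52 ± 0.19 in Hyp males and fell by 2.51 ± 0.19 in Hyp females, and the genotype by diet by sex interaction was -0.25 ± 0.38.

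Calb1 had 4 probe sets, on both chips. Signals of 1417504_at were 3965.6, 3597.1 and 4378.8 in Hyp males on the low phosphate diet, against 7940.3, 8302.4 and 8436.1 in Hyp males on the control diet. In Hyp females they were 4131.3, 4415.7 and 4076.9 on the low phosphate diet, against 8937.2, 10601.8 and 8376.3 on the control diet. The diet groups did not overlap in Hyp mice of either sex. In normal males the signals were 5769.9, 8955.8 and 5949.6 on the low phosphate diet, against 7855, 7473.8 and 8316.6 on the control diet. In normal females they were 5829.7, 5484.2 and 7309.7 on the low phosphate diet, against 8783.5, 9508.8 and 11274.5 on the control diet. The normal females separated by diet and the normal males did not, because 1 of the 3 low phosphate pools of males exceeded all 3 control pools.

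In Hyp pools this probe set fell by 1.10 ± 0.11 on the low phosphate diet (adjusted p = 1.39e-05). The other bright probe sets gave falls of similar size, 1.16 ± 0.15 for 1448738_at (adjusted p = 4.48e-04) and 1.24 ± 0.16 for 1456934_at (adjusted p = 9.53e-04). The dim probe set 1458836_at, with signals of 65.3 to 181, gave -0.35 ± 0.18 and did not pass (adjusted p = 0.796). The 3 passing probe sets share 1 gene and the same RNA, so they are repeat readings rather than replicates.

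In normal pools 1417504_at gave -0.45 ± 0.11 on the diet (adjusted p = 0.091), with a 95% interval of -0.67 to -0.22. The adjusted p was 0.009 without replicate 2 of the normal males on the low phosphate diet, the high pool named above. The probe sets 1448738_at and 1456934_at gave -0.48 ± 0.15 and -0.50 ± 0.16 (adjusted p = 0.26 and 0.314). The genotype by diet interaction of 1417504_at was -0.65 ± 0.15 and did not pass (adjusted p = 0.314), so a different diet response of Calb1 in Hyp and normal kidneys was not shown.

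Over both genotypes Calb1 fell by 0.77 ± 0.08 with the diet (adjusted p = 5.78e-06; 12 pools against 12). S100g and 3 Calb1 probe sets made up the 4 of 16 member probe sets called lower for diet, against 0.324% of all probe sets, and none was higher, against 0.339%. For diet in Hyp pools the same 4 were lower and 1 was higher, against 0.0713% lower and 0.0678% higher over all probe sets. Within 1 sex, 4 of 16 were lower in Hyp males, against 0.0392% of all probe sets, and 3 of 16 in Hyp females, against 0.0321%. For diet in normal pools none was called, against 0.389% in either direction, and 4 had an unadjusted limma p under 0.05, against 8.58% of all probe sets. The median log2 difference over the 16 probe sets was -0.11 for diet in Hyp pools, against 0.04 over all probe sets.

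Markers of the cells that carry these genes were measured in the same pools. Of 8 connecting tubule and principal cell genes (among them the water channel gene Aqp2 and the sodium channel genes Scnn1a, Scnn1b and Scnn1g), 8 were measured and none passed for diet in Hyp pools. Their summed signal was 32961.1 to 42476.2 in Hyp pools on the low phosphate diet, against 35749.8 to 42237.3 in Hyp pools on the control diet. These ranges overlapped. Most of the sum was Klk1, the kallikrein gene, with 24235.9 to 31336.9 in Hyp pools on the low phosphate diet, against 26392 to 30858.9 in Hyp pools on the control diet. Of 6 distal convoluted tubule genes, 5 were measured and none passed for diet in Hyp pools. The sum of these was 11399.3 to 14054.2 on the low phosphate diet, against 12362.6 to 14141.8 on the control diet. Summed signals of intercalated cell and proximal tubule markers separated by diet in these pools. The summed signal of 5 intercalated cell genes was 4041.1 to 4592.6 in Hyp pools on the low phosphate diet, against 3134.6 to 3638.1 in Hyp pools on the control diet, without overlap. Of these 5 genes 1 passed, Slc26a4, the anion exchanger pendrin, which was 0.65 ± 0.08 higher (adjusted p = 2.33e-04). The sum of 6 proximal tubule genes was 44974.3 to 48388.6 on the low phosphate diet, against 37155.6 to 44313.1 on the control diet, without overlap, and none of the 6 passed. In normal pools the proximal tubule sum was 51170.7 to 54272.8 on the low phosphate diet, against 45813.3 to 51132.6 on the control diet, also without overlap. The intercalated cell sum overlapped between the diets in normal pools. Their part in the calbindin values was not tested. In whole kidney, fewer cells of a type and less RNA per cell cannot be told apart.

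**Figure D2:**
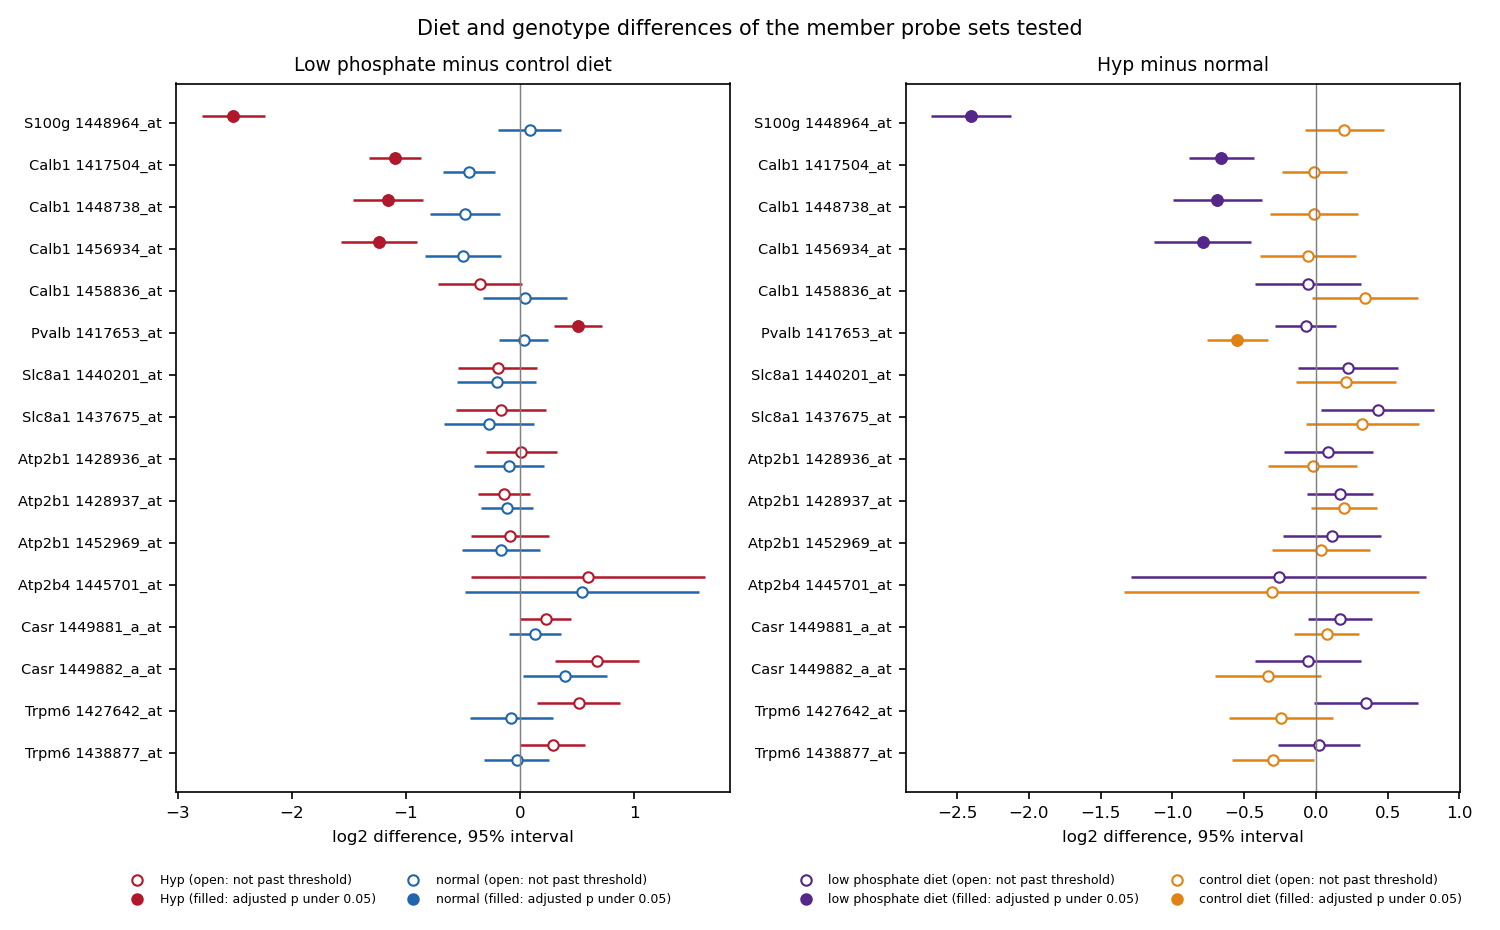
Log2 differences of the 16 tested probe sets with 95% intervals. Left, low phosphate minus control diet within Hyp and within normal pools; right, Hyp minus normal within each diet (6 pools against 6); filled points have an adjusted p under 0.05. S100g lies at -2.52 in Hyp and 0.08 in normal pools on the left, and at -2.40 on the low phosphate diet and 0.20 on the control diet on the right.

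The second comparison set Hyp against normal kidneys within each diet. On the low phosphate diet S100g was 5.28-fold lower in Hyp pools (-2.40 ± 0.13, adjusted p = 4.07e-10). On the control diet its difference was 0.20 ± 0.13, with a 95% interval of -0.08 to 0.48 (adjusted p = 0.771). Calb1 showed the same order with smaller sizes: 1417504_at fell by 0.66 ± 0.11 on the low phosphate diet (adjusted p = 0.00262) and gave -0.01 ± 0.11 on the control diet (adjusted p = 0.993). Its 95% interval on the control diet was -0.23 to 0.22.

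The signals of 1448738_at were 200.1 to 308.5 in Hyp pools on the low phosphate diet, against 339.9 to 542.9 in normal pools on that diet, and the groups did not overlap. The signals of 1456934_at were 157.9 to 283.8 in Hyp pools, against 290.2 to 542.1 in normal pools, also without overlap. They fell by 0.69 ± 0.15 and 0.79 ± 0.16 in Hyp pools (adjusted p = 0.0311 and 0.0226). These calls were lost without any 1 of 8 pools for 1448738_at (adjusted p up to 0.104) and without any 1 of 4 pools for 1456934_at (up to 0.078). Both were also lost without the filter (adjusted p = 0.0903 and 0.0588), and that of 1456934_at with adjustment within each chip.

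In all, 4 of 16 probe sets were lower in Hyp pools on the low phosphate diet and none was higher, against 0.264% lower and 0.399% higher over all probe sets. On the control diet 1 of 16 was lower, against 0.189% of all probe sets, and none was higher, against 0.321%. That probe set belongs to Pvalb. The proximal tubule and intercalated cell marker sums separated by genotype on the low phosphate diet. The proximal tubule sum was 44974.3 to 48388.6 in Hyp pools, against 51170.7 to 54272.8 in normal pools, and the intercalated cell sum was 4041.1 to 4592.6 in Hyp pools, against 2910.6 to 4027.7 in normal pools. Neither pair overlapped. On the control diet the proximal tubule sum was 37155.6 to 44313.1 in Hyp pools, against 45813.3 to 51132.6 in normal pools, also without overlap. The intercalated cell sum overlapped there, at 3134.6 to 3638.1 in Hyp pools, against 2257.6 to 3451.5 in normal pools. The part of the marker sums in the calbindin values was not tested.

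Pvalb encodes parvalbumin, a calcium buffer of the early distal convoluted tubule, of muscle and of some neurons. Its signals were 624.5, 644.7 and 626.9 in Hyp males on the low phosphate diet, against 392.2, 415.5 and 400.9 in Hyp males on the control diet. In Hyp females they were 596, 559 and 946.4 on the low phosphate diet, against 539.6, 531.7 and 512.3 on the control diet. The diet groups did not overlap in Hyp mice of either sex, and 1 female pool at 946.4 stood well above the rest. In normal males the signals were 541.4, 604 and 649.2 on the low phosphate diet, against 578.6, 705.8 and 553 on the control diet. In normal females they were 781.9, 819.5 and 783.2 on the low phosphate diet, against 744.8, 733.1 and 758.5 on the control diet. On the control diet all 6 Hyp pools lay below all 6 normal pools, whose lowest value was 553.

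On the control diet Pvalb was 1.46-fold lower in Hyp pools (-0.55 ± 0.10, adjusted p = 0.0101). With phosphate restriction the difference was -0.07 ± 0.10 (adjusted p = 0.912). The control diet call kept its side of the threshold without any 1 pool and was lost when arrays were scaled to a common median (adjusted p = 0.0613). The diet difference in Hyp pools was 0.51 ± 0.10 (adjusted p = 0.0491). It was lost without any 1 of 20 pools, that is, all but the 3 pools of Hyp females on the low phosphate diet and replicate 2 of the normal males on the control diet, with adjusted p up to 0.157. The same call was lost under 4 other settings, the replicate block, no filter, common-median scaling and quantile normalization (adjusted p = 0.0525 to 0.223). The genotype by diet interaction of 0.48 ± 0.14 did not pass (adjusted p = 0.665), so the genotype differences on the diets were not shown to differ.

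Pvalb moved opposite to a marker of its own segment. Slc12a3, the salt cotransporter of the distal convoluted tubule, was 0.55 ± 0.07 higher in Hyp pools on the control diet (adjusted p = 1.75e-04). It was the 1 gene of the 5 measured markers of that segment to pass for genotype over both diets, at 0.50 ± 0.05 (adjusted p = 2.54e-06). The summed marker signal on the control diet was 12362.6 to 14141.8 in Hyp pools, against 9117.4 to 12988 in normal pools, with some overlap. A large part of this sum was Slc12a3 itself, with 6753.6 to 8067 in Hyp pools, against 3872.1 to 6497.1 in normal pools. On the control diet too it was the 1 gene of the 5 to pass, so the sum does not show a shift of the other markers. Of 5 skeletal muscle genes only Ckm passed the filter, with signals of 49.7 to 225.6 and no call, and Acta1, Mylpf, Myh4 and Tnnc2 did not pass it. The part of the marker shift in the Pvalb values was not tested.

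Averaged over diet, 3 of 16 member probe sets were lower in Hyp pools and none higher, against 0.77% lower and 0.856% higher over all probe sets. They were S100g (-1.10 ± 0.09), Calb1 1417504_at (-0.33 ± 0.08, adjusted p = 0.0242) and Pvalb (-0.31 ± 0.07, adjusted p = 0.0276). S100g and Calb1 were called on the low phosphate diet and Pvalb on the control diet. The genotype by diet interaction passed for S100g alone, so only its average was shown to combine unequal parts. The Calb1 call was lost without replicate 2 of the Hyp males on the low phosphate diet or replicate 3 of the normal females on the control diet (adjusted p = 0.0519 and 0.0511). The Pvalb call was lost without any 1 of 7 pools (adjusted p up to 0.0597). Without the filter or with common-median scaling both calls were lost, and the Pvalb call also with quantile normalization (adjusted p up to 0.085 for Calb1 and 0.0942 for Pvalb). In the same contrast 3 of 5 intercalated cell genes and 1 of 5 distal convoluted tubule genes rose, 3 of 6 proximal tubule genes fell, and no gene of the other 9 marker lists passed. Their part in these values was not tested.

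The genes for calcium exit had no diet or genotype call by limma. Slc8a1, the sodium-calcium exchanger, had 4 probe sets, of which 1440201_at and 1437675_at were tested, with signals of 442.7 to 1110.2 and 448.8 to 1376.5 over the 24 pools. Their genotype differences were 0.22 ± 0.12 and 0.38 ± 0.13 (adjusted p = 0.573 and 0.239). The groups overlapped for both. The probe sets that did not pass the filter, 1420210_at and 1425817_a_at, had signals of 42.6 to 121.8 and 85.7 to 192.2 and exceeded the array median on 0 and 2 of 24 arrays.

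Atp2b1, the widely expressed plasma membrane calcium pump, had 3 tested probe sets with signals of 297.5 to 537.4, 332.4 to 574.6 and 150.3 to 306.4. Their genotype differences ranged from 0.03 ± 0.10 for 1428936_at to 0.18 ± 0.08 for 1428937_at (adjusted p = 0.398). Their diet differences lay between -0.13 and -0.04. None passed. Atp2b4, the pump isoform also known from the distal tubule, was measured poorly by 1445701_at, which had signals of 5.3 to 106.9 and exceeded the array median on 9 of 24 arrays. Its diet difference of 0.57 ± 0.35 (adjusted p = 0.682) leaves a wide interval, so these arrays say little on Atp2b4.

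**Figure D3:**
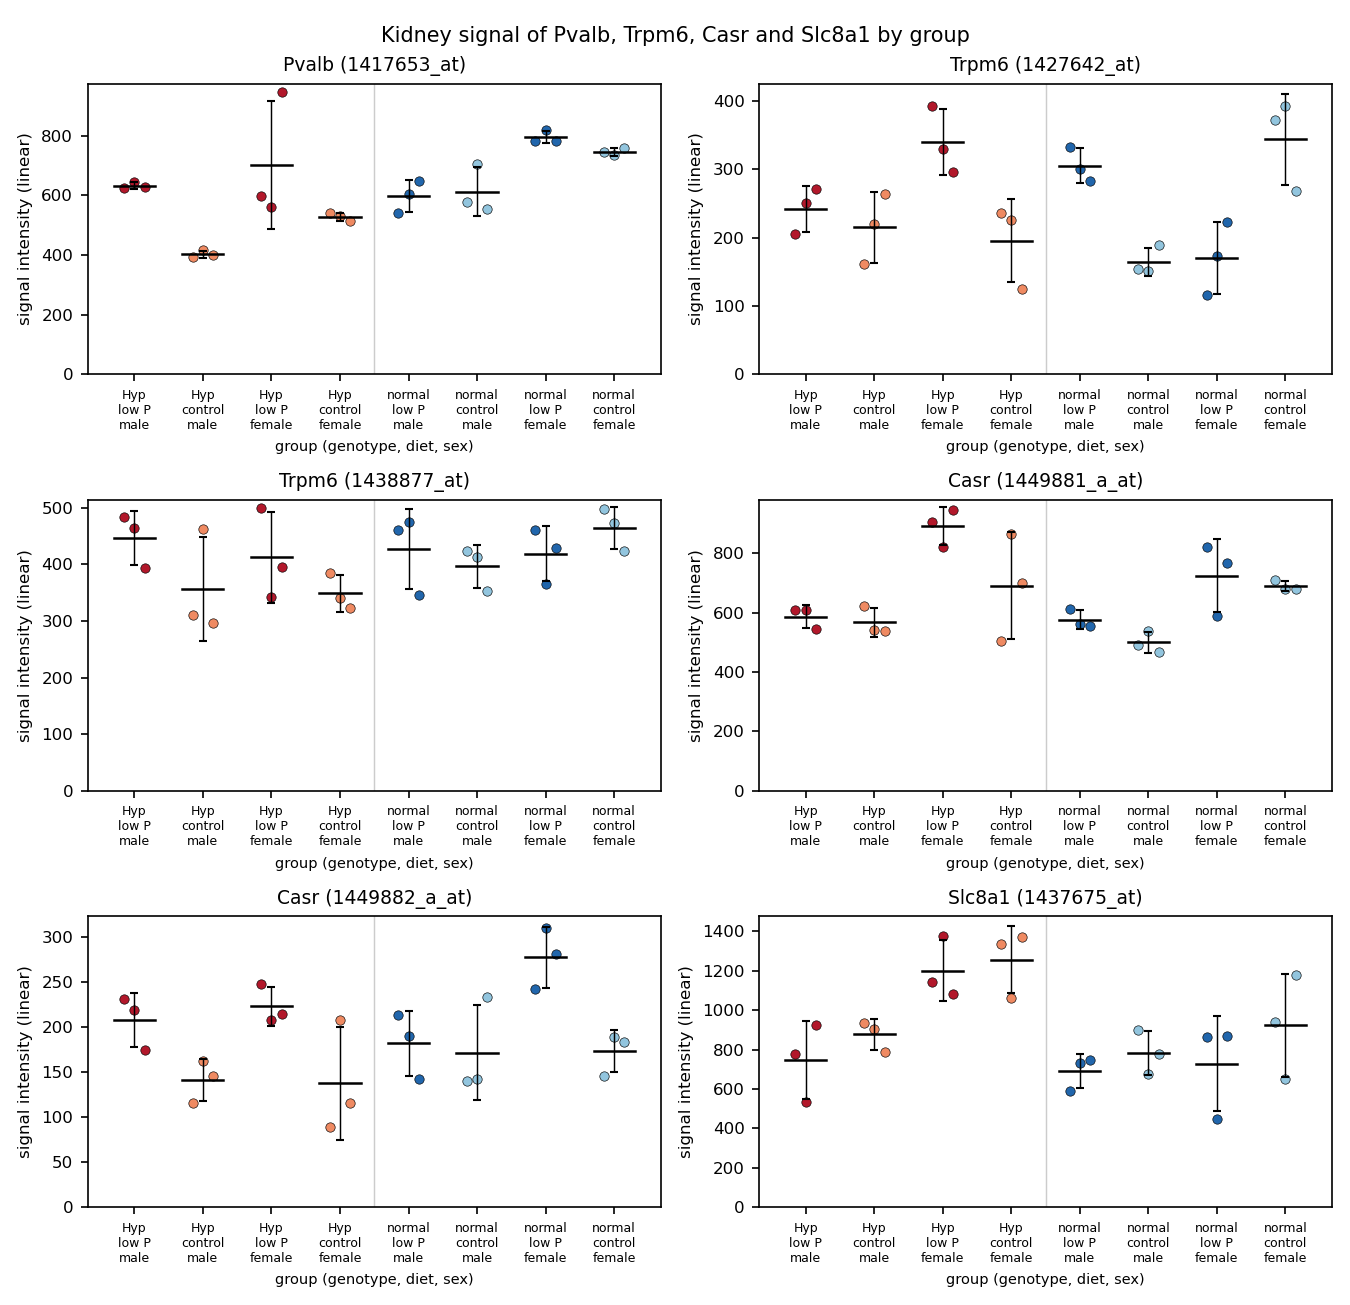
Signal intensity (linear) by group for Pvalb, the tested probe sets of Trpm6 and Casr, and Slc8a1 1437675_at, with means and SD (3 pools per group). Pvalb is lowest in the 3 pools of Hyp males on the control diet, at 392.2 to 415.5, and Trpm6 1427642_at shows opposite diet orders in normal males and normal females.

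Casr, the receptor that senses extracellular calcium, had 2 tested probe sets. Signals of 1449882_a_at were 174.2 to 248.2 in Hyp pools on the low phosphate diet, against 89.1 to 208 in Hyp pools on the control diet. In normal pools they were 142.8 to 310 on the low phosphate diet, against 139.8 to 233.2 on the control diet. The diet groups overlapped in both genotypes over both sexes. Within 1 sex they did not overlap in Hyp males (174.2 to 231.3 on the low phosphate diet, against 115.7 to 162.5 on the control diet) or in normal females (242.7 to 310, against 146.3 to 189.5). They overlapped in Hyp females, through 1 control diet pool at 208, and in normal males. The diet difference of 0.54 ± 0.13 did not pass (adjusted p = 0.0541), and it passed under 4 other settings, the replicate block, a pseudocount of 32, adjustment within each chip and a variance trend (adjusted p = 0.0313 to 0.047). It also passed without replicate 2 of the Hyp females on the control diet (adjusted p = 0.00423) or without replicate 3 of the normal males on either diet (adjusted p up to 0.0411). This probe set is dim, exceeding the array median on 13 of 24 arrays, of which 11 were of the low phosphate diet and 2 of the control diet. It thus met the filter's 3 arrays only through the diet in which it was higher. Its diet results, under any setting, are descriptions and not support for a diet difference. The brighter 1449881_a_at gave a diet difference of 0.18 ± 0.08 (adjusted p = 0.466).

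Trpm6, the channel kinase through which magnesium enters distal convoluted tubule cells, had 2 probe sets that did not show the same pattern. Signals of 1427642_at were 332.4, 299.7 and 282.7 in normal males on the low phosphate diet, against 154.2, 151.5 and 188.4 in normal males on the control diet. In normal females they were 115.7, 172.3 and 222.2 on the low phosphate diet, against 371.3, 391.9 and 267.5 on the control diet. The diet groups separated in both sexes of normal mice, in opposite directions. In Hyp males they were 205, 250.7 and 270.8 on the low phosphate diet, against 161.3, 219.1 and 264.2 on the control diet. In Hyp females they were 391.4, 329 and 296.3 on the low phosphate diet, against 235.8, 225.3 and 125.5 on the control diet. The diet groups overlapped in Hyp males and did not in Hyp females.

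For 1427642_at the diet difference was 0.89 ± 0.25 in normal males (adjusted p = 0.31) and -1.05 ± 0.25 in normal females (adjusted p = 0.173). It was 0.19 ± 0.25 in Hyp males and 0.84 ± 0.25 in Hyp females (adjusted p = 0.371). No member passed for diet in normal males or normal females, against 0.128% and 0.0713% of all probe sets, and 1 and 6 had an unadjusted limma p under 0.05, against 6.41% and 6.44%. The genotype by diet by sex interaction of -2.58 ± 0.49 for 1427642_at did not pass (adjusted p = 0.544), with no probe set of 28044 called in that interaction (0% called, 3.97% with an unadjusted limma p under 0.05, and 3.88e-05 here). The other probe set, 1438877_at, had signals of 295.8 to 499.2 and an interaction of -0.13 ± 0.39. The first exceeded the array median on 18 of 24 arrays.

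The third comparison set males against females. Hyp males were hemizygous and Hyp females heterozygous, so in Hyp pools sex cannot be told apart from that difference in the Hyp allele. This also holds for the genotype by sex interaction. S100g was lower in males by 0.48 ± 0.09 on the log2 scale (adjusted p = 0.00112; 12 pools against 12), Casr 1449881_a_at by 0.41 ± 0.08 (adjusted p = 7.18e-04) and Pvalb by 0.30 ± 0.07 (adjusted p = 0.00636). The Pvalb call was lost when arrays were scaled to a common median (-0.20, adjusted p = 0.107). Signals of Casr 1449881_a_at were 469.2 to 624.1 in males, against 506.4 to 946.8 in females, with overlap at the low end of the females. The other tested Casr probe set, 1449882_a_at, was not called for sex, with 115.7 to 233.2 in males, against 89.1 to 310 in females. In all, S100g, Casr 1449881_a_at and Pvalb made up 3 of 16 probe sets lower and none was higher. Over all probe sets 8.67% were lower and 5.98% higher, so sex differences were common on these arrays. The median over the 16 was -0.25, against -0.04 over all probe sets.

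**Figure D4:**
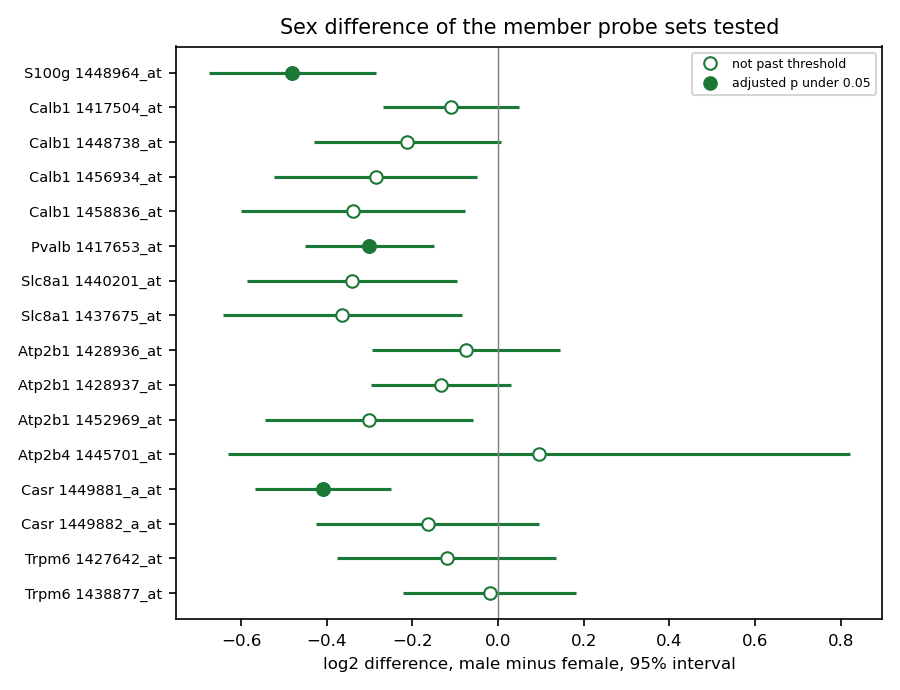
Log2 difference, male minus female, of the 16 tested probe sets with 95% intervals (12 pools against 12). Filled points have an adjusted p under 0.05. All but Atp2b4, which has the widest interval, lie below 0.

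None of the 16 passed for genotype by sex or diet by sex, against 0.0499% and 0% of all probe sets, and 1 had an unadjusted limma p under 0.05 in each, against 6.25% and 5.18%. Markers of several cell types were lower in males. Of the connecting tubule and principal cell list 5 of 8 fell, of the distal convoluted tubule list 3 of 5, of the thick ascending limb list 2 of 4, of the podocyte list 3 of 3 measured, of the endothelium list 3 of 5, of the intercalated cell list 2 of 5, of the leukocyte list 1 of 4 and of the fat list 2 of 2 measured. Of the proximal tubule list 2 of 6 rose and 2 fell, and none of the adrenal, muscle or red blood cell genes passed. The summed signal of the connecting tubule and principal cell list was 32505.6 to 39982.2 in males, against 37420.2 to 43191.2 in females. The part of these shifts in the values of S100g, Casr and Pvalb was not tested.

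The other genes of the pathway were taken as a list of 24, of which 20 were measured. Trpv5, an apical calcium entry channel, had no named probe set, and Atp2b2 and Cldn14 did not pass the filter. Cyp27b1, Trpv6 and Cldn19 passed the filter with no array above its median in at least 1 diet, sex or combination of genotype and diet, so they are left out of the counts and given by their signals alone. Of the other 17, 1 rose and 2 fell for genotype by limma, against 0.856% higher and 0.77% lower over all probe sets. Cyp24a1, which breaks down active vitamin D, was 1.88 ± 0.14 higher in Hyp pools (adjusted p = 2.71e-08). Pth1r, the parathyroid hormone receptor, fell by 0.42 ± 0.04, and Kl, the coreceptor of the hormone FGF23, by 0.69 ± 0.08.

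Cyp27b1, the enzyme of active vitamin D synthesis, had signals whose diet order was opposite in the genotypes. They were 7.3, 5.6 and 11.4 in Hyp males on the low phosphate diet, against 160.3, 134 and 220.6 in Hyp males on the control diet. In Hyp females they were 21.3, 19.8 and 4.4 on the low phosphate diet, against 225.5, 637.3 and 177.8 on the control diet. All 6 Hyp pools on the low phosphate diet were near the floor of the scale. These are the pools in which S100g was lowest, and a link between Cyp27b1 and S100g was not tested. In normal pools the signals were 161.2 to 435.4 on the low phosphate diet, against 42.4 to 108 on the control diet, without overlap.

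The genotype order of Cyp27b1 was opposite on the diets as well. With phosphate restriction the signals were 4.4 to 21.3 in Hyp pools, against 161.2 to 435.4 in normal pools. On the control diet they were 134 to 637.3 in Hyp pools, against 42.4 to 108 in normal pools. Neither pair of ranges overlapped. The probe set exceeded the array median on 9 of 24 arrays, none of them from Hyp pools on the low phosphate diet or normal pools on the control diet, where every signal was below the lowest array median of 164.6. No size or test is given for these differences. In the normal pools, where the Cyp27b1 signals were higher on the low phosphate diet, S100g did not pass for diet and Calb1 1417504_at gave -0.45 ± 0.11, which did not pass. A link of Cyp27b1 with either calbindin gene was not tested.

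Cyp24a1 signals were 2134.8 to 3662.8 in Hyp pools on the low phosphate diet, against 1382.6 to 2627.6 in Hyp pools on the control diet. They were 318.7 to 873.8 in normal pools on the low phosphate diet, against 614.7 to 1385.2 in normal pools on the control diet. The diet ranges overlapped in each genotype over both sexes. Within 1 sex they did not overlap in Hyp males (2891.2 to 3662.8 on the low phosphate diet, against 1815.5 to 2627.6 on the control diet), in Hyp females (2134.8 to 2428, against 1382.6 to 2023.2) or in normal males (318.7 to 434.6, against 668.6 to 1150.8), and they overlapped in normal females. Diet differences of 0.53 ± 0.19 in Hyp pools and -0.79 ± 0.19 in normal pools did not pass (adjusted p = 0.607 and 0.0946). Vdr, the vitamin D receptor, gave 0.16 ± 0.07 for genotype and 0.19 ± 0.07 for diet (adjusted p = 0.408 and 0.32).

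**Figure D5:**
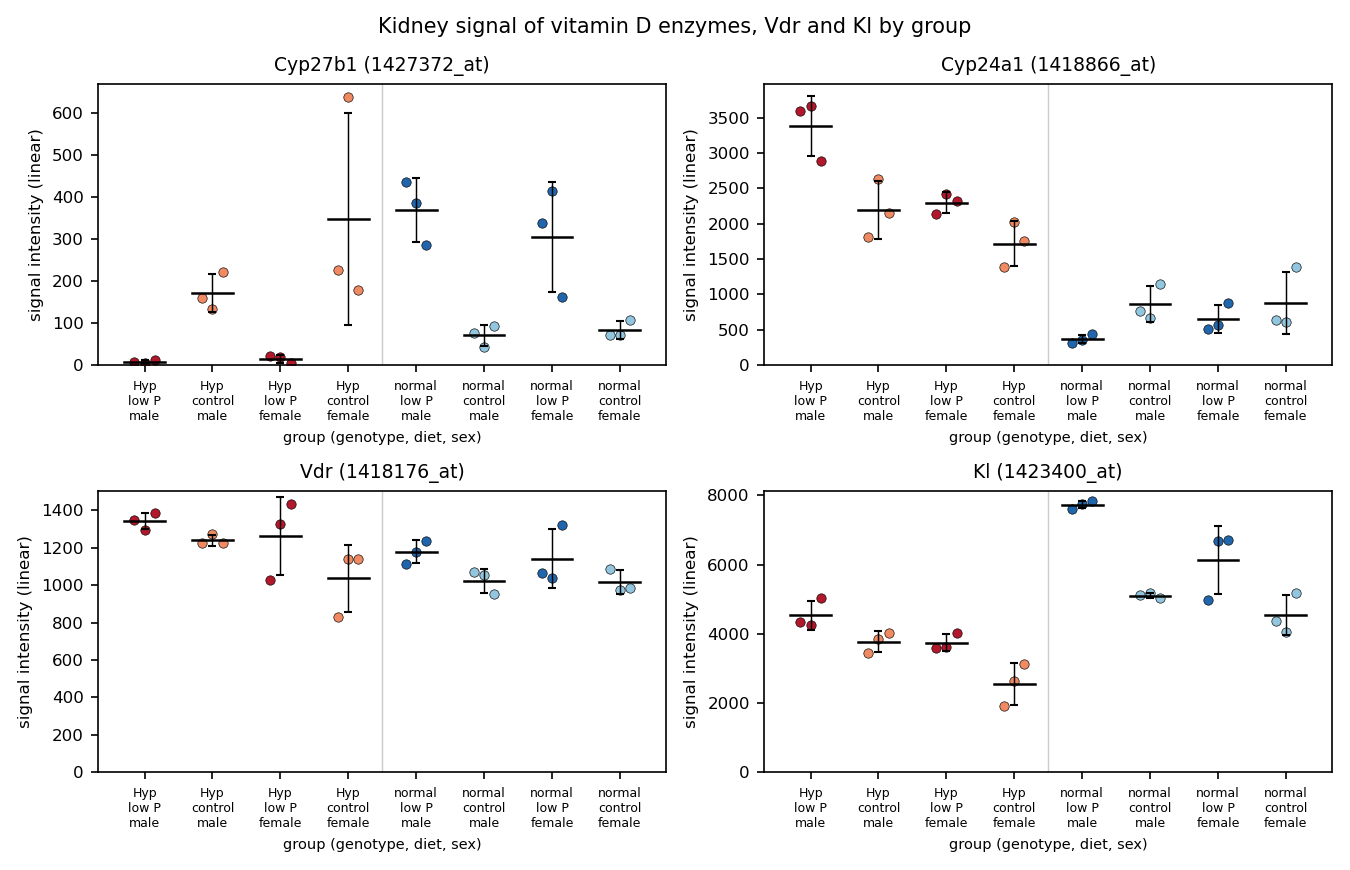
Signal intensity (linear) of Cyp27b1, Cyp24a1, Vdr and Kl in each pool by group, with means and SD (3 pools per group). Cyp27b1 lies at 4.4 to 21.3 in Hyp pools on the low phosphate diet, and Cyp24a1 at 1382.6 or more in all Hyp pools.

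For diet over both genotypes 1 of the 17 rose, Kl at 0.47 ± 0.08 (adjusted p = 0.00249), and none fell, against 0.339% higher and 0.324% lower over all probe sets. For sex 2 rose and 3 fell in males, against 5.98% higher and 8.67% lower over all probe sets. Kl and Pth1r were 0.35 ± 0.08 and 0.24 ± 0.04 higher. Cnnm4, a membrane protein linked to magnesium transport, had signals of 314 to 486.1 in males, against 669.5 to 946 in females, without overlap (-1.03 ± 0.09, adjusted p = 1.24e-07). Cldn16, the tight junction protein for calcium and magnesium in the thick ascending limb, fell by 0.32 ± 0.08, and Egf, a growth factor that stimulates TRPM6, by 0.20 ± 0.05.

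Trpv6, the other apical entry channel, had signals of 33 to 153.7 in males, against 59.8 to 236.1 in females, with overlap. It exceeded the array median on 3 arrays, none of them male. Cldn19, the partner of claudin-16 in those junctions, had signals of 89.4 to 262.5 on the low phosphate diet, against 101.8 to 194 on the control diet, with overlap. It exceeded the array median on 3 arrays, all of the low phosphate diet.

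Patterns over the 8 group means were compared between S100g or Calb1 and 12837 named genes, by the root mean square difference of centred log2 means. For S100g, whose own means had a root mean square spread of 1.07, the closest were D5Ertd615e (0.53), Slfnl1 (0.63), Gm5785 (0.64), Gm15408 (0.64) and Unc13c (0.65). For Calb1, with a spread of 0.46, the closest were Trim6 (0.20), 4930463O16Rik (0.22), Jade3 (0.22), Fam243 (0.24) and Snhg14 (0.25). The distances for S100g were thus not small beside its own spread. Its 5 neighbours were dim where S100g was lowest: in the 6 Hyp pools on the low phosphate diet each exceeded the array median on 0 or 1 arrays. Over all 24 arrays D5Ertd615e, Unc13c and Gm5785 exceeded it on only 5, 6 and 7, and Slfnl1 and Gm15408 on 14 and 16. The patterns of these neighbours are therefore known only roughly. The neighbours of Calb1 exceeded the array median on 0 to 4 of the 6 Hyp low phosphate arrays, and on 10 to 22 of all 24. None of the 10 passed for a diet comparison or for the genotype by diet interaction. The neighbours were picked by the same group means, so these tests do not bear on whether the patterns are shared.

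As checks of the labels, Xist had signals of 62.1 to 180.3 in male pools, against 1457.9 to 2011.4 in female pools, and Eif2s3y 211 to 332.8 in males, against 0.8 to 6.9 in females. Sex labels therefore match all 24 pools. Phex was not measured usefully: its probe sets never exceeded 32.8 and 49.8, below every array median of its chip (at least 164.6), and do not check the genotype.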

How the data were processed

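Kidney RNA of 24 pools was measured on the 430A and 430B mouse arrays. Per the labels' protocols, RNA was extracted with TRIzol and labelled with biotin. The deposited values are linear signal intensity per probe set, which the authors made with GCOS 1.2 (per the submitters' processing notes). Neither the scaling target nor the algorithm is stated there. On every array the trimmed mean of the 100 probe sets shared by the chips is 1200.

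Intensities under 1 were set to 1, and log2 values entered limma 3.58.1 in R 4.3.3 (8 group means, chips separately, no replicate block). A probe set was kept if it exceeded the array median on at least 3 of 24 arrays. This left 28044 probe sets, over which p-values were adjusted by Benjamini-Hochberg at a threshold of 0.05. The steps were tested on simulated data. Symbols came from the platform annotation: 35041 probe sets had 1, 936 several and 9160 none. Named genes were all members, all pathway genes past the threshold with Vdr, Cyp24a1, Cyp27b1, Pth1r and Kl whatever their values, and the 5 nearest patterns. Cldn19 and Klk1 were added after their values were seen. Members and lists were chosen with earlier results of these data known. Alternatives covered the replicate block, filter, pseudocount, scaling, probe set choice, adjustment, variance trend and each pool left out.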

Additional observations from a re-analysis of the deposited data

Results flagged for a closer look

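The diet response of S100g in Hyp pools minus that in normal pools passed limma's interaction test, at -2.60 ± 0.19 on the log2 scale (adjusted p = 2.91e-07). All 6 Hyp pools on the low phosphate diet lay below the Hyp pools on the control diet, while the diet groups of normal pools overlapped.

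The Trpm6 probe set 1427642_at separated the diets in opposite directions in normal males and normal females, with no overlap in either. The difference between these diet responses was 1.94 ± 0.35 and did not pass over all probe sets (adjusted p = 0.23); this comparison within normal pools was chosen after seeing the data. In Hyp pools it was -0.65 ± 0.35 (adjusted p = 0.877). The other Trpm6 probe set gave 0.25 ± 0.27 in normal pools, so the separation was seen on 1 of 2 probe sets.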

How the results depend on the processing

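No called difference changed sign under any setting tried, while some that were not called did, such as genotype for Atp2b1 1428936_at (-0.01 to 0.09 as pools were left out). The S100g calls for diet, diet in Hyp pools, genotype, genotype on the low phosphate diet, interaction and sex, and the diet calls of Calb1 1417504_at, 1448738_at and 1456934_at over all and in Hyp pools, kept their side of the threshold in every setting. With the replicate block, 1 member probe set was higher for diet (0 in the report), 0 for diet in Hyp pools (1 in the report), and 4 were lower for sex (3, adding Slc8a1 1437675_at). The titles number the pools by series, without saying what a number shares. Correlations of same-number deviations exceeded 0.1 for 32 of 84 pairs on the 430A chip (median 0.07, against -0.03 for other pairs). On the 430B chip they did so for 0 of 84 (median 0.02, against -0.01). On these chips 15 and 22 of 24 pools correlated best with their own number. By these measures pools of the same number were more alike on both chips. The main fit took no pairing because the titles state none, and what makes pools of the same number alike was not tested. Without the filter, 1 was lower for genotype (3), 0 higher for diet in Hyp pools and 2 lower for genotype on the low phosphate diet (4). With common-median scaling, 1 was lower for genotype, 0 higher for diet in Hyp pools, 0 lower for genotype on the control diet (1) and 2 lower for sex (3). With quantile normalization, 0 were higher for diet in Hyp pools, 1 lower for diet in normal pools (0) and 2 lower for genotype. With 1 probe set per gene, 2 were lower for diet, diet in Hyp pools and genotype on the low phosphate diet (4 each), since 1 Calb1 probe set then stood for the gene. A pseudocount of 32, adjustment within each chip and the variance trend each gave 1 higher for diet (Casr 1449882_a_at), within-chip adjustment 3 lower for genotype on the low phosphate diet and 4 for sex (adding Slc8a1 1440201_at), and the trend 4 for genotype (adding Calb1 1456934_at), 6 for sex and 1 for diet in normal pools. Leaving out each pool in turn gave 0 to 1 higher for diet, 0 to 1 higher for diet in Hyp pools, 0 to 1 lower for diet in normal pools, 1 to 4 lower for genotype, 2 to 4 lower for genotype on the low phosphate diet and 3 to 5 lower for sex. The 1 for diet in normal pools came without replicate 2 of the normal males on the low phosphate diet, and the 1 for genotype without replicate 3 of the normal females on the control diet. Except where construction is named, the cause was not tested. Probe sets near the array medians (Atp2b4, Trpm6 1427642_at, Casr 1449882_a_at) are known only roughly. Casr 1449882_a_at met the filter only through low phosphate arrays, so its diet calls under other settings are descriptions.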
